A study of Mus musculus with 20 samples.

Results

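The 6 genes of the MCM2 to MCM7 replicative helicase, the DNA sliding clamp gene Pcna and the 3 D-type cyclin genes Ccnd1, Ccnd2 and Ccnd3 were followed in mouse macrophages. The 10 genes were chosen by symbol: each Ensembl gene of the deposited counts table that carries one of these names was taken. All 10 were present among 22165 genes in the table, and all 10 were among the 10663 genes that passed the filter on low counts. The cells were bone marrow-derived macrophages of wild-type C57BL/6 mice, grown with m-CSF (macrophage colony-stimulating factor) for 7 days. Every group was wild type, and the labels name no allele or transgene. Control cells (Ctrl) were compared with cells given 250 µM dimethyl itaconate (DI), which is itaconate, a metabolite of activated macrophages, in an esterified form that enters cells, for 12 h before the stimulus. LPS and IFNg were then given together, and RNA was taken at 0 h (no stimulus), 1, 2, 4 and 6 h in both arms. This made 10 groups of 2 libraries, 20 in all. The labels do not say whether the libraries of a group came from separate cultures or animals, so p-values measure the spread between these samples, which may be technical. The age and sex of the mice are not in the labels.

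The MCM2 to MCM7 proteins form a ring that is loaded onto replication origins in the G1 phase and unwinds DNA during S phase, and PCNA is the ring that holds DNA polymerases on their template. D-type cyclins bind the kinases CDK4 and CDK6, which phosphorylate the retinoblastoma protein and so release E2F factors; the MCM genes and Pcna are textbook E2F targets. Bone marrow-derived macrophages divide in response to m-CSF, which induces D cyclins, whereas LPS and IFNg are known to stop their proliferation.

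Sequencing depth was 3655977 to 8938983 counts per library in Ctrl, and in DI it was 3982073 to 6725447. Fewer distinct molecules were present in DI libraries by the following estimate. Of the low genes, those for which the other libraries of the arm predict 4 to 12 reads, 20.6 to 41.7% had none in a DI library against 3.83 to 7.69% in Ctrl. This gives an estimate of 4.41 to 8.21 reads per molecule in DI and 1.98 to 2.62 in Ctrl. None of the 10 genes was at 0 in a Ctrl library, and 0 to 4 of them were at 0 in a DI library. Levels are given as CPM, counts scaled to the library total and corrected by TMM factors, which balance the libraries on the bulk of the genes. The floor used for a count of 0 is 3 counts, which equal 0.240 to 1.07 CPM in Ctrl and 0.346 to 0.849 CPM in DI. It is the most that a 0 allows only if each read is its own molecule. These floors, and the intervals given for ratios, cover the counting error of reads only. At the reads per molecule above, a 0 allows more than that, so a fold from the floor is not a lower bound. All 8 macrophage markers (Adgre1, Csf1r, Cd68, Itgam, Lyz2, Fcgr1, Mertk and C1qa) were present, at a summed 3835 to 5393 CPM in Ctrl and 2752 to 4615 CPM in DI. The sum of 7 myeloid progenitor markers, a dividing cell type of marrow, was 4.19 to 16.3 CPM in Ctrl and 0.732 to 12.0 CPM in DI, and that of 5 fibroblast and stroma markers was 33.9 to 54.7 CPM in Ctrl and 6.10 to 34.8 CPM in DI. Summed neutrophil markers (6 genes) spanned 335 to 582 CPM in Ctrl and 316 to 595 CPM in DI, and 5 dendritic cell markers 11.2 to 54.0 and 7.26 to 25.3 CPM. B cell markers summed to at most 5.41 CPM, and T and NK cell, mast cell and erythroid markers to at most 1.44 CPM in any library; Cd3e, Ncr1, Mcpt4, Fcer1a, Hbb-bs and Klf1 were at 0 in all 20. The part of other cell types in the results below was not tested, and in bulk RNA fewer cells of a type and less RNA per cell cannot be told apart.

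The promoters of the 10 genes were searched for E2F-type letters. RefSeq promoter windows on GRCm38.p6, from 250 bases before to 50 after a gene's start, were found for 7 of the 10 genes: Mcm2, Mcm3, Mcm5, Mcm6, Mcm7, Pcna and Ccnd3. Both strands were searched for TTTCGCGC, TTTGGCGC, TTCCCGCC and TTCGCGCC, which overlap one another, so that 1 stretch can count as several matches. Of all 32851 promoters listed there, 3.32% held at least 1 of them (0.323, 0.514, 2.19 and 0.524% for each in that order). Matches lay in the windows of 4 of the genes, Mcm3, Mcm5, Mcm6 and Mcm7, and none in those of Mcm2, Pcna and Ccnd3. Mcm7 has 2 windows, of which 1 held matches, and Mcm3 also has a match to TTCCCGCC on the other strand that is not shown. A match is a description of letters, not of a bound site, and a window without one says nothing of the factor. Whether matches go with levels was not tested, and Mcm2, without a match, ran with Mcm6 at r = 0.95 over the 10 group means. The stretches are shown with the matching letters in capitals, 5′ to 3′ on the gene's own strand.
Mcm5, chr8:75109330-75109389, plus strand: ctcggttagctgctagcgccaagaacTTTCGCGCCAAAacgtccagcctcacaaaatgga
Mcm6, chr1:128359782-128359841, minus strand: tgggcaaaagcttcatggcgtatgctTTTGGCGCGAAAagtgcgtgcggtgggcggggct
Mcm6, chr1:128359719-128359778, minus strand: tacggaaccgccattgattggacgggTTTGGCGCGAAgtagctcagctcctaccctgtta
Mcm7, chr5:138171849-138171878, minus strand: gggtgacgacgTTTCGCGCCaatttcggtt
Mcm3, chr1:20820263-20820292, minus strand: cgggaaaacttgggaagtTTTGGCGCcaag
The stretches of Mcm5 and Mcm6 lie before the RefSeq start, and those of Mcm7 and Mcm3 just after it.

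The Ccnd2 transcript rose with LPS and IFNg in both arms, and it was lower in DI than in Ctrl at every time. Cyclin D2 is a D-type cyclin whose gene (ENSMUSG00000000184) lies on GRCm38 chromosome 6 from 127125162 to 127152193, minus strand. In the Ctrl libraries it stood at 412 and 480.4 CPM at 0 h, 504 and 587 at 1 h, 1267 and 1401 at 2 h, 4302 and 4600.4 at 4 h, and 5753 and 5269 at 6 h. In the DI libraries it stood at 58.1 and 78.1 CPM at 0 h, 110.1 and 89.8 at 1 h, 124 and 135 at 2 h, 364 and 403 at 4 h, and 293 and 437 at 6 h. Every DI library, at any time, was below or within the range of unstimulated Ctrl: only DI at 6 h replicate 2 reached the 0 h Ctrl libraries. The order of the group means was the Ctrl groups from 6 h down to 0 h, then DI at 4, 6, 2, 1 and 0 h, and the one pair of neighbours whose libraries overlapped was DI at 4 and 6 h. Against 0 h, Ctrl rose by 1.58 ± 0.25 on the log2 scale at 2 h (SE; edgeR adjusted p = 5.27e-05), 3.32 ± 0.27 at 4 h (7.28e-10) and 3.63 ± 0.27 at 6 h (2.41e-10). DI rose by 0.92 ± 0.25 at 2 h (0.0167), 2.49 ± 0.26 at 4 h (8.92e-08) and 2.42 ± 0.26 at 6 h (1.64e-07). The call at 2 h in DI was lost without DI at 0 h replicate 1 or DI at 2 h replicate 2, and with library totals in place of TMM factors it was 0.47 (adjusted p = 0.18). It was also lost in a fit of the groups compared alone (0.216) and without replicate 2 of DI at 2, 4 and 6 h (0.0630). At 1 h it was not called in either arm.

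Before any stimulus Ccnd2 was 6.53-fold lower in DI than in Ctrl, a log2 difference of -2.71 ± 0.26 (edgeR adjusted p = 2.23e-07). The difference was -2.45 ± 0.26 at 1 h (8.15e-07) and -3.37 ± 0.27 at 2 h (2.11e-08). At 4 h it was -3.54 ± 0.27 (9.92e-09), and at 6 h -3.92 ± 0.28 (9.84e-10), which is 15.1-fold. These 5 calls held in every alternative run, leaving out each library included. Whether the rise itself was smaller in DI was tested as a response difference: the DI change from 0 h minus the Ctrl change was -0.66 ± 0.35 at 2 h (adjusted p = 0.734), -0.83 ± 0.35 at 4 h (0.390) and -1.21 ± 0.35 at 6 h (0.0938), so it did not pass at any time. With the DESeq2 Wald test the 6 h value was -1.22 (0.0160), and without replicate 2 of DI at 2, 4 and 6 h it was -1.52 (0.0495).

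Ccnd1 moved the other way from Ccnd2 in Ctrl and fell after the stimulus. Cyclin D1 is the D-type cyclin whose gene classically follows growth factor signals, and the gene (ENSMUSG00000070348) lies on chromosome 7 from 144929931 to 144939925, minus strand. Ctrl libraries stood at 2512 and 3441 CPM at 0 h, 2659.5 and 3546 at 1 h, 2027 and 2197 at 2 h, 727 and 1110.3 at 4 h, and 1181 and 982 at 6 h. DI libraries stood at 954 and 1878 CPM at 0 h, 1349 and 1547 at 1 h, 833 and 1520.3 at 2 h, 983 and 913 at 4 h, and 814 and 1045 at 6 h. The Ctrl and DI libraries were apart at 0, 1 and 2 h and overlapped at 4 and 6 h. In the order of group means, Ctrl at 1 and 0 h overlapped each other at the top, Ctrl at 2 h stood alone, and each of the 7 lower groups overlapped its neighbour. Ctrl fell by 1.70 on the log2 scale at 4 h (SE 0.33, edgeR adjusted p = 2.93e-04) and by 1.46 at 6 h (SE 0.32, 0.00122). In DI the values were -0.58 ± 0.32 at 4 h (0.220) and -0.61 ± 0.32 at 6 h (0.192) and were not called; with library totals in place of TMM factors they were -1.18 (0.00492) and -1.15 (0.00563), and without DI at 0 h replicate 1 the 6 h value was -1.02 (0.0405). The difference between these responses was 1.12 ± 0.45 at 4 h (0.347) and 0.85 ± 0.45 at 6 h (0.502).

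Averaged over the 5 times, Ccnd1 was lower in DI by a log2 difference of -0.64 ± 0.14 (edgeR adjusted p = 0.00120). Of the single times it was called between arms at 1 h only, where DI was lower by a log2 difference of -1.10 ± 0.32 (edgeR adjusted p = 0.0463). That call was lost without any 1 of the 4 libraries of the comparison and in a fit of the groups compared alone (0.0634). At 0 h the difference had nearly the same size, -1.07 ± 0.32, with an adjusted p of 0.0650 that passed in 8 of its alternatives, among them without DI at 0 h replicate 2 (0.0130), and at 2 h it was -0.84 ± 0.32 (0.122). At 4 and 6 h the fits gave 0.05 ± 0.32 (0.955, 95% interval -0.58 to 0.67) and -0.22 ± 0.32 (0.716, -0.84 to 0.40).

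Ccnd3 (ENSMUSG00000034165, chromosome 17 from 47505051 to 47599691, plus strand), the third D-type cyclin gene, rested on few reads, 11 to 153 per group. Ctrl libraries stood at 6.56 and 7.16 CPM at 0 h, 5.29 and 4.62 at 1 h, 3.69 and 4.75 at 2 h, 1.67 and 4.08 at 4 h, and 3.22 and 7.17 at 6 h. DI libraries stood at 2.65 and 2.42 CPM at 0 h, 3.21 and 1.81 at 1 h, 2.27 and 8.0 at 2 h, 0.244 and 2.65 at 4 h, and 2.26 and 1.13 at 6 h. The arms were apart at 0, 1 and 6 h and overlapped at 2 and 4 h. No comparison called it: the average DI minus Ctrl difference was -0.95 ± 0.40 (edgeR adjusted p = 0.0749), and -1.61 (0.00247) without replicate 2 of DI at 2, 4 and 6 h, which are the libraries with the most genes at 0. It also passed with the DESeq2 Wald test (0.0330), with limma-voom (0.0292) and with counts reduced to estimated molecules (0.0314), and without DI at 2 h replicate 2 (0.0302) or DI at 4 h replicate 2 (0.0110) alone. Its gene overlaps Bysl on the opposite strand, Ccnd1 overlaps LTO1, and Ccnd2 overlaps 2 antisense genes; the strand setting of the counting is not given in the sources used here, so reads of such partners cannot be told apart from the cyclins' own.

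**Figure D1:**
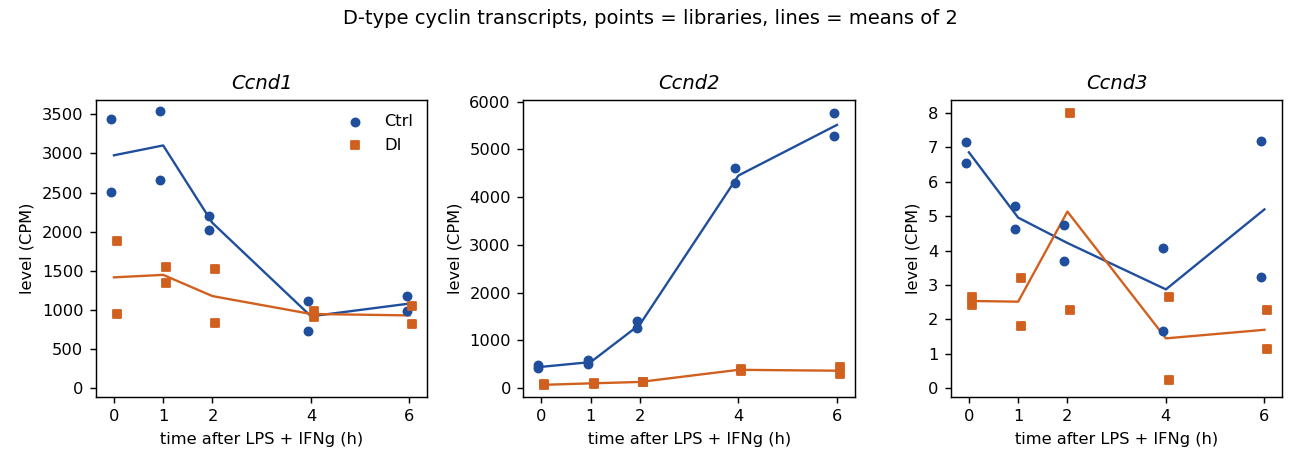
Levels of Ccnd1, Ccnd2 and Ccnd3 in CPM (vertical axis, from 0, a separate scale for each gene) against hours after LPS and IFNg; points are libraries, lines join the means of 2. Ccnd2 climbs to 5753 and 5269 CPM in Ctrl at 6 h and to 293 and 437 CPM in DI, while Ccnd1 falls in Ctrl to the range of the DI libraries by 4 h.

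The 6 MCM genes were at their lowest in Ctrl at 6 h of LPS and IFNg, where 4 of the 6 (Mcm2, Mcm3, Mcm5 and Mcm6) were below their 0 h level by the test. Mcm3 (ENSMUSG00000041859, chromosome 1 from 20802968 to 20820312, minus strand) was the only MCM gene called at 4 h in Ctrl, and the order of the changes was not tested. Its Ctrl libraries stood at 38.4 and 61.2 CPM at 0 h, 51.8 and 43.4 at 1 h, 44.1 and 30.2 at 2 h, 8.89 and 12.2 at 4 h, and 3.22 and 5.38 at 6 h. Both libraries at 4 h were below every earlier Ctrl library, and both at 6 h were lower again. It fell by 2.23 on the log2 scale at 4 h (SE 0.41, edgeR adjusted p = 1.68e-04) and by 3.51 at 6 h (SE 0.45, 1.50e-06). For Mcm4, Mcm5, Mcm6 and Mcm7, too, both libraries at 4 h were below every earlier Ctrl library. In a fit of the groups compared alone Mcm5 (edgeR adjusted p = 0.0374), Mcm6 (0.024) and Mcm7 (0.0118) passed at 4 h. Mcm6 (ENSMUSG00000026355, chromosome 1 from 128331590 to 128359664, minus strand) stood at 37.7 and 46.0 CPM at 0 h, 39.0 and 36.4 at 1 h, 32.5 and 33.4 at 2 h, 24.5 and 24.2 at 4 h, and 4.29 and 9.27 at 6 h. It was called at 6 h, where it fell by 2.60 (SE 0.39, 1.51e-05). At 4 h it was at -0.78 ± 0.35 (0.114), or -1.64 (8.82e-04) with library totals in place of TMM factors.

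Mcm2 (ENSMUSG00000002870, chromosome 6 from 88883474 to 88898780, minus strand) stood in Ctrl at 7.84 and 11.4 CPM at 0 h, 16.5 and 11.3 at 1 h, 8.12 and 5.41 at 2 h, 8.34 and 4.30 at 4 h, and 0.358 and 0.299 at 6 h. The 6 h levels are 1 read in each library, 2 in all, against 211 at 0 h. That is a ratio of 28.9 in favour of 0 h with a 95% counting interval of 7.90 to 240.1. The interval takes each read as its own molecule and so is too narrow. The call had an edgeR adjusted p of 3.10e-04. Mcm5 (ENSMUSG00000005410, chromosome 8 from 75109569 to 75128439, plus strand) stood at 8.24 and 7.66 CPM at 0 h, 12.4 and 10.4 at 1 h, 6.65 and 8.18 at 2 h, 3.89 and 4.08 at 4 h, and 0.716 and 1.49 at 6 h. It fell by 2.80 at 6 h (SE 0.88, adjusted p = 0.0199), a call that was lost without any 1 of the 4 libraries compared.

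Mcm4 (ENSMUSG00000022673, chromosome 16 from 15623897 to 15637400, minus strand) and Mcm7 (ENSMUSG00000029730, chromosome 5 from 138164583 to 138172422, minus strand) were not called at any time in Ctrl. Mcm4 stood at 14.7 and 21.6 CPM at 0 h, 15.1 and 19.7 at 1 h, 30.5 and 15.3 at 2 h, 12.8 and 11.8 at 4 h, and 4.29 and 8.07 at 6 h. Its 6 h difference was -1.54 ± 0.75 (edgeR adjusted p = 0.143). Mcm7 stood at 12.4 and 14.2 CPM at 0 h, 12.7 and 16.6 at 1 h, 10.6 and 8.05 at 2 h, 6.67 and 5.43 at 4 h, and 2.15 and 4.19 at 6 h. Its 6 h difference was -2.05 ± 1.02 (0.151). For both genes the 2 libraries at 6 h were below both at 0 h. The 6 h differences passed in a fit of the groups compared alone (adjusted p = 0.00814 for Mcm4 and 0.00187 for Mcm7). Mcm7 carries Mir25, Mir93 and Mir106b on its own strand and overlaps Cops6 and Ap4m1 on the other, so its counts hold the same uncertainty as those of the cyclins.

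In DI 3 of the 6 MCM genes (Mcm2, Mcm3 and Mcm6) were below their own 0 h level at 6 h by the test, and the fitted values of the other 3 were below 0 without passing it. At 0 h Mcm3 was the one MCM gene called lower in DI than in Ctrl. Mcm3 stood at 12.4 and 19.7 CPM at 0 h, 13.7 and 18.8 at 1 h, 17.9 and 14.4 at 2 h, 2.20 and 3.18 at 4 h, and 7.40 and 5.38 at 6 h. It fell by 2.58 on the log2 scale at 4 h (SE 0.46, edgeR adjusted p = 2.11e-04) and by 1.32 at 6 h (SE 0.42, 0.0262). The 6 h call was lost without DI at 0 h replicate 2 or DI at 6 h replicate 2, with limma-voom (0.0941), with counts reduced to estimated molecules (0.0984), in a fit of the groups compared alone (0.218) and without replicate 2 of DI at 2, 4 and 6 h (0.119). Mcm6 stood at 23.0 and 28.6 CPM at 0 h, 16.3 and 23.3 at 1 h, 21.6 and 27.3 at 2 h, 15.6 and 12.5 at 4 h, and 9.25 and 7.93 at 6 h. It fell by 1.58 at 6 h (SE 0.38, 0.00363; 0.0663 in a fit of the groups compared alone). Mcm2 stood at 8.84 and 5.30 CPM at 0 h, 2.01 and 4.18 at 1 h, 4.54 and 6.19 at 2 h, 3.42 and 2.12 at 4 h, and 0 in both libraries at 6 h. With 3 counts per library as the floor, it was 9.64-fold lower at 6 h than at 0 h, which is not a lower bound at these reads per molecule. The fit without the floor had an edgeR adjusted p of 7.16e-05.

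Mcm5 in DI stood at 1.94 and 1.61 CPM at 0 h, 3.01 and 5.02 at 1 h, 2.95 and 4.39 at 2 h, 0 in both libraries at 4 h, and 1.23 and 0 at 6 h. At 4 h it was 2.33-fold lower than at 0 h with 3 counts per library as the floor, which is not a lower bound either. The fit without the floor was called (edgeR adjusted p = 0.0113). That call was lost without either library of DI at 4 h and with counts reduced to estimated molecules (0.233). Mcm4 stood at 1.77 and 6.22 CPM at 0 h, 5.22 and 7.25 at 1 h, 14.1 and 4.64 at 2 h, 7.56 and 2.39 at 4 h, and 3.90 and 0 at 6 h. Mcm7 stood at 2.12 and 9.11 CPM at 0 h, 1.00 and 2.51 at 1 h, 6.35 and 0 at 2 h, 1.95 and 0 at 4 h, and 1.03 and 0 at 6 h. Replicate 2 was at 0 for Mcm4 at 6 h and for Mcm7 at 2, 4 and 6 h. Neither gene was called over time in DI by the main fit. At 6 h Mcm7 passed with no filter on low counts (edgeR adjusted p = 0.003) and with the DESeq2 Wald test (0.0219). It also passed at 6 h with TMM factors from genes of at least 32 CPM (0.0455) and with library totals (0.0223). At 4 h Mcm7 passed with no filter (0.0239) and with library totals (0.0419). Without replicate 1 of the time compared Mcm7 passed at 2 h (edgeR adjusted p = 0.0340) and at 4 h (0.0413). Without DI at 0 h replicate 1 it passed at 6 h (0.0346), and without replicate 1 at 6 h Mcm4 (0.0200) and Mcm5 (0.0397) passed. In estimated molecules the DI libraries held a median of 3.5 for Mcm2, 12 for Mcm3, 5 for Mcm4, 2 for Mcm5, 17.5 for Mcm6 and 1 for Mcm7, against 18, 97.5, 44.5, 21, 79.5 and 25 in Ctrl. These numbers are not scaled to the library, so they show how few molecules were read and not the size of a difference between arms. Pcna, which was not lower in DI by CPM, had a median of 62.5 in DI against 122 in Ctrl.

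**Figure D2:**
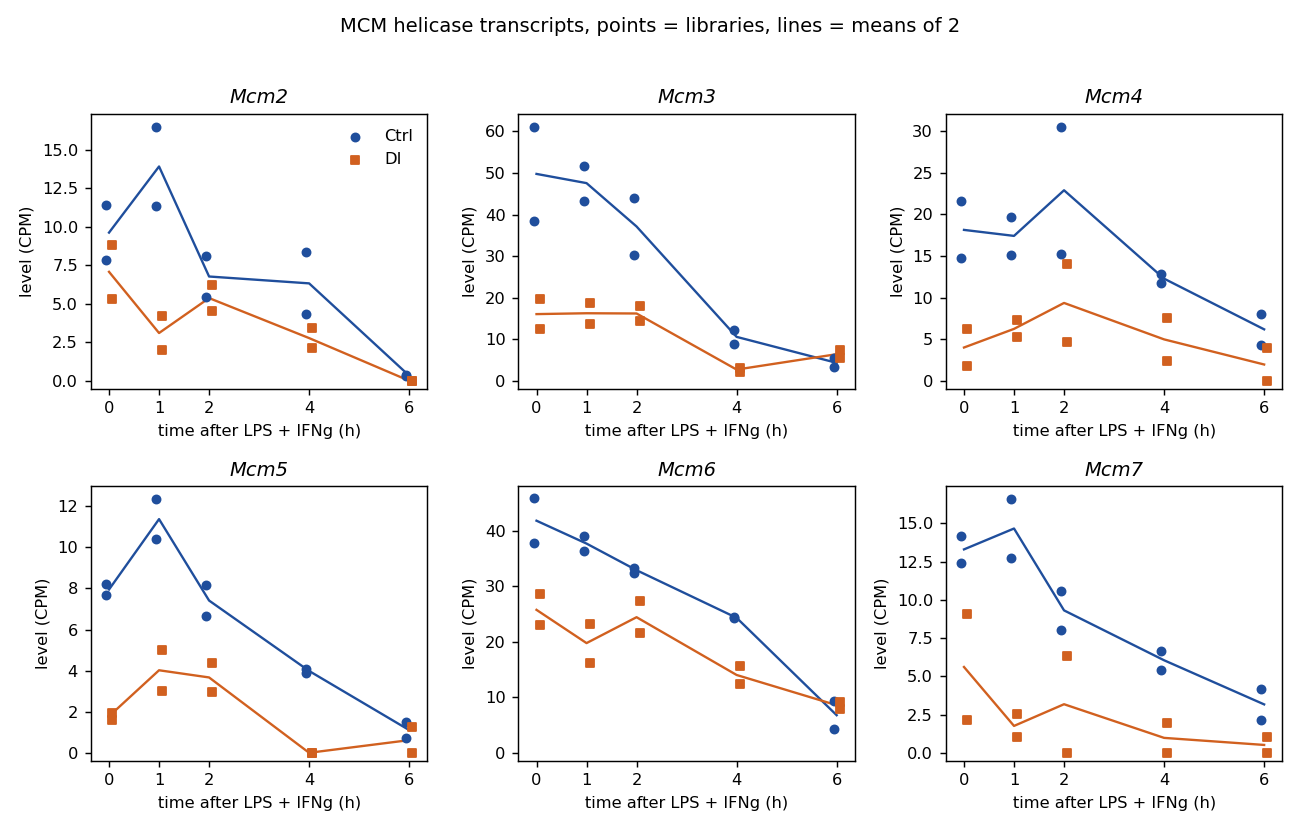
Levels of Mcm2 to Mcm7 in CPM (vertical axis, a separate scale for each gene) against hours after LPS and IFNg; points are libraries, lines join the means of 2. In Ctrl each gene ends at 6 h below its 0 h libraries, and in DI most points lie below those of Ctrl at the same time up to 4 h, with Mcm2 at 0 in DI at 6 h and Mcm5 at 0 in DI at 4 h.

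Between the arms, Mcm3 was the MCM gene called most often. It was lower in DI by a log2 difference of -1.63 ± 0.39 at 0 h (edgeR adjusted p = 0.0145), -1.54 ± 0.39 at 1 h (0.0185) and -1.98 ± 0.48 at 4 h (0.00803), with the DI libraries below both Ctrl libraries each time. At 2 h it was at -1.19 ± 0.39 (0.0716), and at 6 h, when the libraries of the arms overlapped, at 0.56 ± 0.47 (0.493). Each of the 3 calls was lost under some alternatives. The 0 h call was lost in a fit of the groups compared alone (0.134) and without Ctrl at 0 h replicate 2 (0.273) or DI at 0 h replicate 1 (0.160), the 1 h call without any 1 of its 4 libraries, and the 4 h call without Ctrl at 4 h replicate 2 (0.103) or DI at 4 h replicate 1 (0.0694). The 4 h call was also lost with limma-voom (0.129), in a fit of the groups compared alone (0.0935) and with estimated molecules (0.0582). Mcm5 was 5.22-fold lower in DI at 4 h with 3 counts per library as the floor, which is not a lower bound. Its fit without the floor had an edgeR adjusted p of 0.00338, or 0.0564 in a fit of the groups compared alone. Mcm2, Mcm4, Mcm6 and Mcm7 were called at no single time; their differences at 0 h were -0.45 ± 0.62, -2.14 ± 0.74, -0.70 ± 0.35 and -1.22 ± 0.93 in that order, with adjusted p from 0.133 to 0.873. With counts reduced to estimated molecules Mcm4 (0.00617) and Mcm5 (0.0158) passed at 0 h and Mcm2 (0.00899), Mcm5 (0.0480) and Mcm7 (0.00117) at 1 h, each lower in DI. At 0 h Mcm4 also passed with no filter on low counts (0.00673) and Mcm5 with the DESeq2 Wald test (0.0287). At 1 h Mcm2 also passed with that Wald test (0.0125) and limma-voom (0.0368). Mcm7 passed there with no filter (0.00281), the Wald test (0.0304) and the groups compared alone (0.0205). The Wald test also called Mcm3 at 2 h (0.0349), and the fit with no filter called Mcm7 at 4 h (0.033). Mcm7 also passed at 2 h without DI at 2 h replicate 1 (0.0243), and Mcm4 at 6 h without DI at 6 h replicate 1 (0.0142), where the DI library that was left was at 0.

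Averaged over the 5 times, with 10 libraries a side, all 6 MCM genes were lower in DI. This did not hold at each time. At 6 h 4 of the 6 fits were below 0, those of Mcm3 (0.56 ± 0.47) and Mcm6 (0.33 ± 0.41) were above it, and none was called. The averaged log2 differences were -1.15 ± 0.19 for Mcm3 (edgeR adjusted p = 4.22e-05), -1.55 ± 0.34 for Mcm4 (0.00113), -0.50 ± 0.16 for Mcm6 (0.0220) and -2.15 ± 0.49 for Mcm7 (0.00144). For Mcm5 the fit was called (2.36e-04) and the average with groups below 3 counts per library set to that floor was -1.53. For Mcm2 the fit was called (0.0157), and the average with the same floor was -0.91. The Mcm2 call was lost with counts reduced to estimated molecules (adjusted p = 1) and without Ctrl at 6 h replicate 1 (0.0552). The Mcm6 call was lost without Ctrl at 0 h replicate 2, without Ctrl at 6 h replicate 2 (0.127) and with library totals in place of TMM factors (0.0513).

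Pcna (ENSMUSG00000027342, chromosome 2 from 132249162 to 132253314, minus strand) departed from the MCM genes between the arms: it was the member that was higher in DI. Ctrl libraries stood at 44.9 and 85.1 CPM at 0 h, 61.0 and 60.4 at 1 h, 41.1 and 62.0 at 2 h, 52.2 and 53.2 at 4 h, and 30.4 and 31.7 at 6 h. DI libraries stood at 79.3 and 51.5 CPM at 0 h, 61.1 and 64.9 at 1 h, 107 and 95.5 at 2 h, 74.4 and 59.1 at 4 h, and 94.3 and 89.2 at 6 h. At 0 h the arms overlapped and from 1 h on both DI libraries were above both Ctrl libraries, by the least at 1 h. The order of group means was DI at 2, 6, 4 and 0 h, Ctrl at 0 h, DI at 1 h, and Ctrl at 1, 4, 2 and 6 h, and the groups from DI at 4 h to DI at 1 h overlapped in turn. At 6 h DI was higher by a log2 difference of 1.56 ± 0.33 (edgeR adjusted p = 0.00190), which is 2.95-fold, and this call held in every alternative run. The difference was 0.01 ± 0.31 at 0 h (0.998) and 0.05 ± 0.32 at 1 h (0.976). It was 0.97 ± 0.32 at 2 h (0.0688) and 0.34 ± 0.32 at 4 h (0.580). Averaged over the 5 times it was 0.59 ± 0.14 (0.00261).

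Over time, Pcna in Ctrl fell at 6 h by 1.06 on the log2 scale (SE 0.33, edgeR adjusted p = 0.0168). Without Ctrl at 0 h replicate 2, the higher of the 0 h libraries, the value was -0.54 (0.401), and the call was also lost without either library of Ctrl at 6 h. In DI the value at 6 h was 0.49 ± 0.32 (0.299), and its sign turned with library totals in place of TMM factors (-0.07). The difference between these responses was 1.55 ± 0.45 (0.0941), and it passed with the DESeq2 Wald test (0.0349), with library totals (0.0454) and without Ctrl at 0 h replicate 1 (0.0496). The annotation lists processed pseudogenes of Pcna, of which Pcna-ps2 on chromosome 19 had 125 counts over all libraries, so reads of Pcna may be split with such copies.

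**Figure D3:**
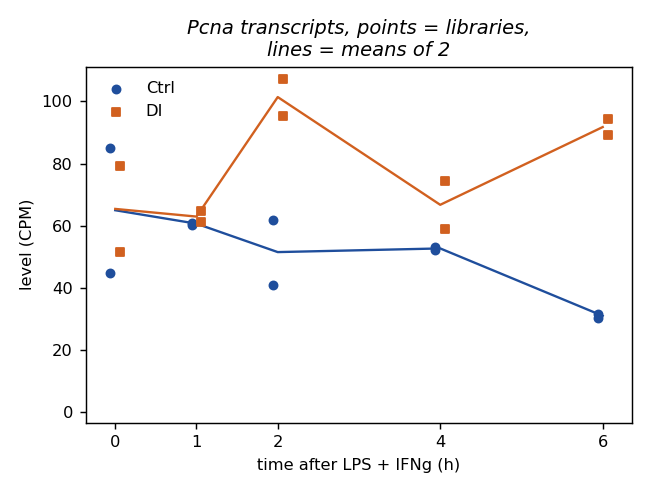
Levels of Pcna in CPM (vertical axis, from 0) against hours after LPS and IFNg; points are libraries, lines join the means of 2. Ctrl ends at 30.4 and 31.7 CPM at 6 h and DI at 94.3 and 89.2 CPM, after overlapping levels at 0 h.

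Counted over the 10 genes, DI against Ctrl called 2 lower at 0 h (Mcm3 and Ccnd2), where 2.17% of all genes tested were called lower, and 3 lower at 1 h (Mcm3, Ccnd1 and Ccnd2; all genes 3.03%). It called 1 lower at 2 h (Ccnd2; all genes 3.97%) and 3 lower at 4 h (Mcm3, Mcm5 and Ccnd2; 6.00%). At 6 h it called 1 lower (Ccnd2; all genes 8.95%) and 1 higher (Pcna; 5.24%). The median log2 difference of the 10 genes was -1.32, -1.48, -0.93 and -1.23 from 0 to 4 h in that order, against -0.05, 0.00, -0.03 and -0.06 for all genes. At 6 h it was -0.72 over 9 genes, leaving out Mcm2, which was at or under the floor in both arms, against -0.03. In the average over the 5 times 8 of the 10 were lower and 1 higher, where 17.7% of all genes were lower and 12.0% higher, and the median was -1.05 with groups at 0 set to the floor, against -0.06.

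**Figure D4:**
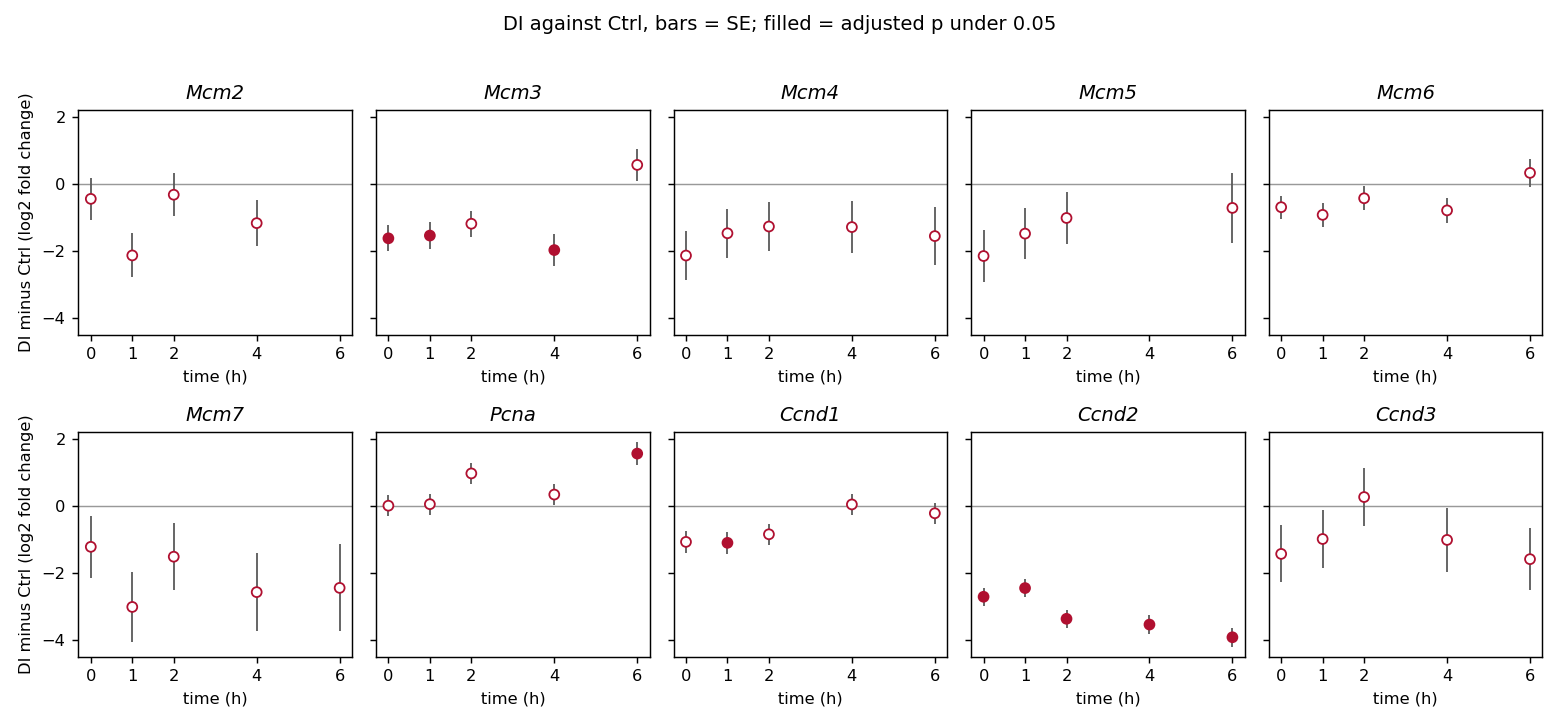
Fitted DI minus Ctrl log2 fold change of each gene (vertical axis) at each time in hours, with bars of 1 SE; filled points have an adjusted p under 0.05. Ccnd2 moves from -2.71 at 0 h to -3.92 at 6 h, Pcna is at 1.56 at 6 h, and no point is drawn for Mcm2 at 6 h and Mcm5 at 4 h, where both DI libraries were at 0.

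Against 0 h in Ctrl no member was called at 1 h (edgeR; all genes 4.07% in either direction; 0 members at an unadjusted p under 0.05, and 0 by DESeq2 and by limma-voom). At 2 h 1 was higher (Ccnd2; all genes 9.13%). At 4 h 1 was higher (Ccnd2; 14.7%) and 2 lower (Mcm3 and Ccnd1; 9.58%), and at 6 h 1 was higher (Ccnd2; 15.2%) and 6 lower (Mcm2, Mcm3, Mcm5, Mcm6, Pcna and Ccnd1; 11.3%). The median over the 10 genes at 6 h was -1.79, and over the 6 MCM genes -2.70, against -0.17 for all genes. In DI no member was called at 1 h (edgeR; all genes 3.59%; 1 at an unadjusted p under 0.05, and 0 by DESeq2 and by limma-voom) and 1 was higher at 2 h (Ccnd2; 7.89%). At 4 h 1 was higher (Ccnd2; 11.4%) and 2 lower (Mcm3 and Mcm5; 7.34%), and at 6 h 1 was higher (Ccnd2; 11.2%) and 3 lower (Mcm2, Mcm3 and Mcm6; 8.91%). The median at 6 h in DI was -1.14 over the 10 genes and -1.47 over the MCM genes, with groups at 0 set to the floor, against -0.10 for all genes. The stimulated comparisons of an arm share its 0 h libraries.

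These time comparisons depend on the scaling. With library totals in place of TMM factors, the median of all genes moved by -0.30, -0.57, -0.86 and -0.82 on the log2 scale at 1, 2, 4 and 6 h in Ctrl and by -0.23, -0.45, -0.61 and -0.55 in DI. For DI against Ctrl it moved by 0.18 at 4 h and 0.19 at 6 h, and for the response difference by 0.12, 0.25 and 0.27 at 2, 4 and 6 h. TMM factors from genes of at least 32 CPM moved it by -0.20, -0.34 and -0.31 at 2, 4 and 6 h in Ctrl, by -0.14, -0.13, -0.24 and -0.17 from 1 to 6 h in DI, and by 0.14 for DI against Ctrl at 6 h. The share of called genes that were higher went from 89.6, 74.7, 60.6 and 57.5% to 67.7, 27.6, 18.1 and 19.4% in Ctrl, and from 91.6, 71.9, 60.8 and 55.8% to 78.3, 31.6, 21.1 and 23.3% in DI. With TMM factors from genes of at least 32 CPM it was 59.7, 40.2 and 40.5% at 2, 4 and 6 h in Ctrl and 60.8, 44.5 and 44.9% in DI. For DI against Ctrl the higher share at 4 and 6 h, 36.4 and 36.9%, was 56.2 and 53.4% with totals and 47.4 and 48.9% with factors from genes of at least 32 CPM. For the response difference it was 24.7% at 4 h, or 48.7% with totals, and 37.0% at 6 h, or 61.6% with totals and 50% with those factors. Under these scalings no called member changed direction. In Ctrl at 6 h the falls of Mcm2, Mcm3, Mcm5, Mcm6, Pcna and Ccnd1 and the rise of Ccnd2 stayed called. As given above, the calls of Mcm5 and Pcna were lost without single libraries.

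Whether the response to LPS and IFNg differed between DI and Ctrl was tested at each time, and no member passed. Of all genes 0.253, 0.356, 0.760 and 1.55% passed at 1, 2, 4 and 6 h in that order, and 0, 1, 3 and 3 members had an unadjusted p under 0.05 (edgeR). The limma-voom fit called 0 members and DESeq2 called 3, all at 6 h. Shares of all genes called by these other tools are not given, so their counts cannot be set against a background. The values nearest the threshold were at 6 h, for Mcm3 (2.19 ± 0.61, adjusted p = 0.0745), Ccnd2 (-1.21 ± 0.35, 0.0938) and Pcna (1.55 ± 0.45, 0.0941). For Mcm3 the Ctrl libraries went from 38.4 and 61.2 to 3.22 and 5.38 CPM and the DI libraries from 12.4 and 19.7 to 7.40 and 5.38, so that the arms overlapped at 6 h. Its response difference passed with factors from genes of at least 32 CPM (2.36, 0.045), with library totals (2.46, 0.0344) and with the DESeq2 Wald test (2.18, 0.0309). For the other 7 members the 6 h adjusted p ran from 0.5 to 0.994, and their intervals were wide, such as -0.03 to 2.07 for Mcm6 and -0.03 to 1.73 for Ccnd1.

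Among themselves the 6 MCM genes ran together over the 10 group means, with a Pearson r from 0.70 to 0.95 over 15 pairs (median 0.79). Within the 5 Ctrl groups r ran from 0.89 to 0.98 and within the 5 DI groups from 0.38 to 0.96. Pcna had r from 0.87 to 0.99 with the 6 MCM genes within Ctrl and from -0.44 to 0.09 within DI. The points share libraries and scaling, and r is given as a description. Among 4959 genes of at least 20 CPM that are not members, the 5 whose group means followed the mean of the 6 MCM genes most closely were Prkacb (r = 0.99), Rnf150 (0.98), Dhrs3 (0.98), Timp2 (0.97) and Tgfbi (0.96). None of them is on the replication or cell cycle lists used below. Closest to Ccnd2 were Ms4a6b (0.99), Isg20 (0.98) and Ms4a4c (0.98), with r of at least 0.94 within each arm. Closest to Ccnd1 were Spg20 (0.96), Zfp36l1 (0.94) and Fgd4 (0.93), closest to Pcna were Znrf2 (0.95), Krtcap2 (0.94) and Cib1 (0.92), and closest to Ccnd3 were Gnpda2 (0.91), Evi2 (0.90) and Cyb5r4 (0.89). Within an arm some of these were looser: Zfp36l1 had r = 0.57 within DI, Cib1 0.68 and Krtcap2 0.80 within DI, and Gnpda2 0.57 and Cyb5r4 0.44 within Ctrl.

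Other genes of replication and the G1 phase were read from 8 lists in 3 comparisons: both arms at 6 h against 0 h, where the median of all genes was -0.17 in Ctrl and -0.10 in DI, and the average of DI against Ctrl, where it was -0.06. Genes that load or fire the MCM ring made a list of 23, of which 21 were tested. In the average of DI against Ctrl 4 of the 21 were lower and 0 higher (list median -0.13), which is near the 17.7% of all genes that were lower. Among them were Mcm10 (-2.14 ± 0.42, edgeR adjusted p = 3.10e-04), which helps activate the loaded helicase, Wdhd1 (-0.91 ± 0.20, 0.00117) and Mcmbp (-0.49 ± 0.14, 0.00834), an MCM-binding protein. In Ctrl at 6 h 1 was higher, Mcmbp (2.45 ± 0.32, 1.76e-06), and 2 lower, with Gmnn, the inhibitor of origin licensing, at -2.99 ± 0.69 (0.00172). Gmnn went from 27.3 and 21.3 CPM at 0 h to 1.79 and 4.19 CPM at 6 h. In DI at 6 h 1 was higher (Mcmbp, 1.42 ± 0.31, 0.00181) and 3 lower, with a list median of -1.03 in Ctrl and -0.65 in DI. In Ctrl at 6 h 11.3% of all genes were lower and 15.2% higher. The 2 lower genes and the 1 higher gene of the list there are not above that background. In DI 8.91% of all genes were lower and 11.2% higher, and the 1 higher gene is not above the background either. Among the lower were Orc2, an origin recognition subunit (-1.59 ± 0.42, 0.00805), and Gmnn (-2.34 ± 0.64, 0.0105; 0.0926 without replicate 2 of DI at 2, 4 and 6 h). Dbf4, the activating subunit of the CDC7 kinase, was at -1.03 ± 0.42 in Ctrl at 6 h (0.0734).

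Of 24 tested replication fork genes 11 were lower and 0 higher in the average of DI against Ctrl (list median -0.63 with groups at 0 set to the floor; all genes 17.7% lower). Pclaf, a PCNA-associated factor, was at -1.64 ± 0.21 (edgeR adjusted p = 1.23e-06), Lig1, the ligase that joins Okazaki fragments, at -1.04 ± 0.20 (1.93e-04), and Timeless, a fork protection factor, at -1.97 with DI at 6 h, where it was at 0 in both libraries, set to the floor (7.92e-07). In Ctrl at 6 h 7 were lower and 1 higher (median -1.46; all genes 11.3% lower and 15.2% higher). The clamp loader subunits split: Rfc1 fell by 2.43 (SE 0.40, 5.06e-05) from 143 and 112 CPM to 20.04 and 26.9, and Rfc3 rose by 1.76 (SE 0.53, 0.0149) from 23.0 and 18.0 CPM to 68.7 and 70.5. Under library totals Rfc3 was at 0.94 (0.136). In DI at 6 h 9 were lower and 0 higher (median -1.21; all genes 8.91% lower), with Rfc1 at -1.93 ± 0.40 (9.04e-04) and Pclaf at -1.89 ± 0.51 (0.00922).

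Nucleotide synthesis genes, 7 tested, gave 5 lower and 0 higher in the average of DI against Ctrl (median -0.85 with groups at 0 set to the floor; all genes 17.7% lower), among them the ribonucleotide reductase subunit Rrm1 (-1.04 ± 0.29, edgeR adjusted p = 0.00788). In each arm 2 were lower at 6 h and 0 higher, with a median of -2.02 in Ctrl and -1.02 in DI (all genes 11.3 and 8.91% lower). These were Dut, the dUTPase, at -3.14 ± 0.87 in Ctrl (0.00812) and -3.795 ± 0.93 in DI (0.00445), and Rrm1 at -2.02 ± 0.64 (0.0214) and -1.98 ± 0.68 (0.0408).

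Of 10 CDK and partner cyclin genes, Ccne1, the E-type cyclin that acts after the D cyclins, rose in both arms. It stood at 3.20 and 1.71 CPM in Ctrl at 0 h and 37.9 and 18.5 at 6 h, and at 4.77 and 2.31 CPM in DI at 0 h, 90.0 and 79.8 at 4 h and 54.0 and 86.9 at 6 h. The 6 h rise was 3.49 ± 0.46 on the log2 scale in Ctrl (edgeR adjusted p = 2.35e-06) and 4.34 ± 0.48 in DI (1.92e-07). It was the 1 gene of this list called higher in each arm at 6 h. Lower were 3 in Ctrl, among them Cdk4, the kinase partner of the D cyclins (-1.68 ± 0.47, 0.00911), and Cdk1 (-2.54 ± 0.89, 0.0363), and 0 in DI, where Cdk4 was at -1.004 ± 0.46 (0.128). The list's medians were -1.29 in Ctrl and -0.45 in DI. Of all genes 11.3 and 8.91% were lower and 15.2 and 11.2% higher, so the 1 higher gene of 10 is no more than the background. In the average of DI against Ctrl 1 was higher, the phosphatase gene Cdc25a (0.51 ± 0.15, 0.0102; 0.0502 without replicate 2 of DI at 2, 4 and 6 h), and 2 lower (list median 0.10 with groups at 0 set to the floor), near the 12.0% and 17.7% of all genes.

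The CDK inhibitors, 6 tested, gave 3 higher and 0 lower in Ctrl at 6 h (median 1.38; all genes 15.2% higher). Cdkn1a (p21) rose by 1.82 (SE 0.31, edgeR adjusted p = 6.42e-05) from 1512 and 1517 CPM to 6619 and 4056, Cdkn2d (p19Ink4d) rose by 3.11 (SE 0.89, 0.0108), and Cdkn2b (p15Ink4b) rose by 1.78 (SE 0.60, 0.0302; 0.98 and 0.196 with library totals). In DI at 6 h 1 was higher, Cdkn1a (1.90 ± 0.31, 6.26e-05; list median 0.40; all genes 11.2% higher). In the average of DI against Ctrl 2 were higher, Cdkn1c (p57; 1.51 ± 0.20, 1.69e-06) and Cdkn2b (1.68 ± 0.26, 1.50e-05), and 2 lower, with Cdkn1a at -0.73 ± 0.13 (1.47e-04; list median -0.0025; all genes 12.0% higher and 17.7% lower).

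Of 13 RB and E2F family genes 5 were lower and 1 higher in the average of DI against Ctrl (median -0.25; all genes 17.7% lower and 12.0% higher). All 3 pocket protein genes were among the lower, Rb1 (-0.64 ± 0.18, edgeR adjusted p = 0.00873), Rbl2 (-1.21 ± 0.35, 0.00983) and Rbl1 (-0.72 ± 0.21, 0.0119). In Ctrl at 6 h 2 were higher, Rbl1 (2.20 ± 0.48, 0.00116) and E2f5 (1.84 ± 0.48, 0.00485), and 4 lower, with Rbl2 at -2.68 ± 0.79 (0.0124; list median -1.33). In DI at 6 h 2 were higher, Rbl1 (1.62 ± 0.49, 0.0192) and E2f5 (1.61 ± 0.49, 0.0198), and 1 lower, Rb1 (-1.63 ± 0.42, 0.00704; list median -0.60). Of all genes 15.2% were higher and 11.3% lower in Ctrl at 6 h and 11.2% and 8.91% in DI, so the 2 higher genes of 13 are near the background in both arms. Without replicate 2 of DI at 2, 4 and 6 h Rbl1, E2f5 and Rb1 in DI had an adjusted p of 0.0712, 0.157 and 0.0754. With library totals Rbl1 and E2f5 in DI had 0.0885 and 0.1 and E2f5 in Ctrl 0.0848.

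Of 15 tested mitosis genes 7 were lower and 0 higher in the average of DI against Ctrl (median -0.82 with groups at 0 set to the floor; all genes 17.7% lower). Mki67, the Ki-67 proliferation marker, was at -2.74 ± 0.25 (edgeR adjusted p = 3.99e-09), the spindle factor Tpx2 at -1.55 ± 0.15 (1.41e-08) and the kinesin Cenpe at -1.56 ± 0.19 (6.60e-07). Mki67 in Ctrl stood at 21.4 and 8.87 CPM at 0 h and 89.1 and 141 at 2 h, and in DI at 5.66 and 12.9 at 0 h and 5.67 and 2.06 at 2 h. Its response difference at 2 h passed (-4.18 ± 0.76, 0.00768). In Ctrl at 6 h 5 were lower and 1 higher (median -1.81), where 11.3% of all genes were lower and 15.2% higher. Top2a, topoisomerase IIα, was at -1.81 ± 0.45 (0.00326), Cenpf at -2.74 ± 0.70 (0.00480), and Tpx2 rose by 2.68 (SE 0.34, 1.31e-06) from 65.6 and 38.8 CPM to 369 and 302. In DI at 6 h 5 were lower and 1 higher (median -1.60), where 8.91% of all genes were lower and 11.2% higher. Tpx2 was at 1.85 ± 0.34 (2.87e-04) there and Top2a at -2.01 ± 0.48 (0.00357). The 1 higher gene of 15 is not above the background in either arm.

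Genes of the growth signals that act on D cyclins, 9 tested, were mixed: 2 higher and 3 lower in the average of DI against Ctrl (median 0.05; all genes 12.0% higher and 17.7% lower). Fosl1, an AP-1 subunit, was higher in DI (3.804 ± 0.39, edgeR adjusted p = 2.99e-08), at 9.72 and 10.6 CPM against 0.160 and 0.605 CPM in Ctrl at 0 h. Junb (-0.98 ± 0.13, 3.43e-06) and Egr1 (-1.04 ± 0.16, 2.16e-05), an AP-1 subunit and an immediate-early factor, were lower. At 6 h 2 were higher and 3 lower in Ctrl and 2 higher and 2 lower in DI (medians -0.27 and -0.09), where 15.2 and 11.2% of all genes were higher and 11.3 and 8.91% lower. Junb rose in both arms (2.50 ± 0.31, 1.02e-06, and 2.34 ± 0.32, 4.66e-06) and Myc fell by 2.56 (SE 0.64, 0.00382) in Ctrl and by 2.70 (SE 0.56, 0.00103) in DI. Irs2, an insulin receptor substrate, was at -2.90 ± 0.77 in Ctrl (0.00630), and Ets2 rose by 2.23 (SE 0.32, 1.30e-05) in DI.

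Response differences passed for 4 genes of the lists in all, which are named here after their values were seen. Besides Mki67 they were Egr1 at 1 h (-3.86 ± 0.49, edgeR adjusted p = 1.10e-04), 4 h (-2.53 ± 0.53, 0.0163) and 6 h (-2.13 ± 0.55, 0.0463), Timeless at 6 h (0.00622, with DI at 0 in both 6 h libraries) and Csf1r, the m-CSF receptor, at 6 h (1.55 ± 0.40, 0.0483). Egr1 stood at 505 and 584 CPM in Ctrl at 1 h and 79.6 and 78.2 CPM in DI. When replicate 2 of DI at 2, 4 and 6 h was left out, the RB and E2F list at 6 h in DI had 0 higher and 2 lower in place of 2 and 1, and in the average of DI against Ctrl the CDK list had 0 higher and 3 lower in place of 1 and 2 and the growth signal list 1 higher in place of 2. The other counts of lower genes stayed within 1 of those above in these 2 comparisons.

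**Figure D5:**
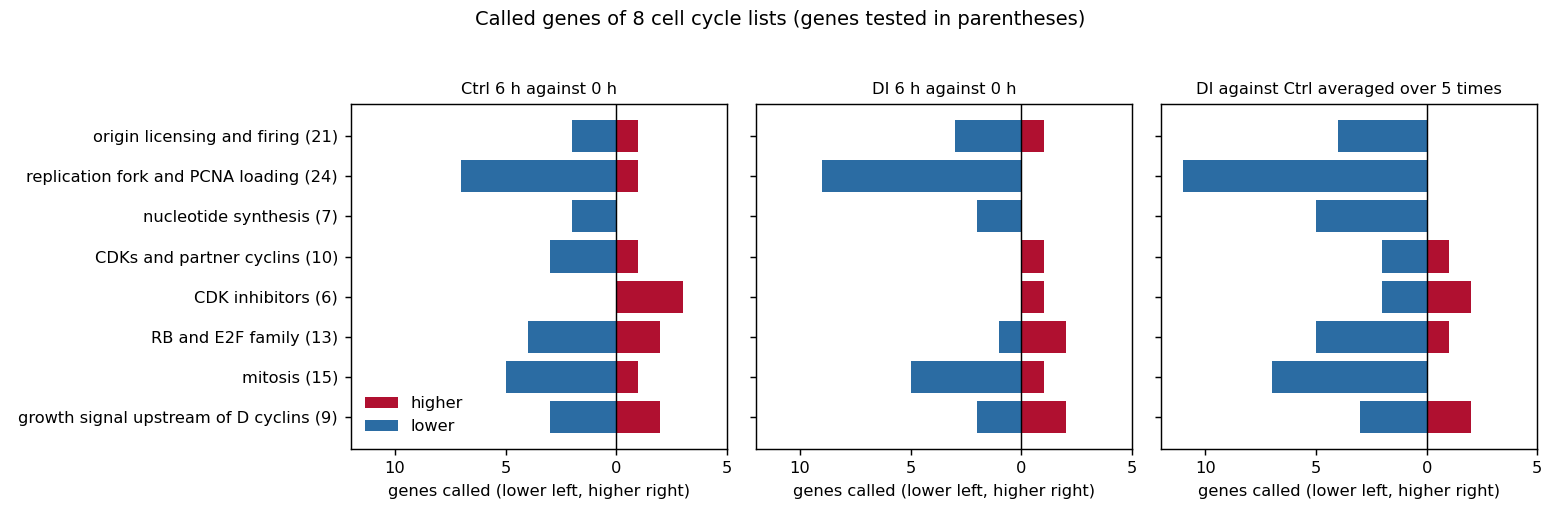
Numbers of called genes of the 8 lists (horizontal axis, lower to the left and higher to the right of 0; genes tested in parentheses) in Ctrl at 6 h, in DI at 6 h and in DI against Ctrl averaged over 5 times. The replication fork list, the longest, has 7, 9 and 11 lower calls of 24 genes, nucleotide synthesis has 5 lower of 7 in the average, and CDK inhibitors in Ctrl at 6 h are all on the higher side (3).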

How the data were processed

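Per the labels' protocols, the authors made barcoded, strand-specific libraries of mRNA 3′ ends by oligo-dT priming, pooled them by Actb qPCR and amplified them for 12 PCR cycles; no molecular identifier is named. STAR, HTSeq and DESeq2 on mm10 are named in the submitters' processing notes (versions not given in the sources used here). The authors deposited raw counts per Ensembl gene; 21745 of 22165 genes matched a symbol in GENCODE M21 (GRCm38), whose coordinates are given. No deposited columns were left out.

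Tests used edgeR 4.0.16 in R 4.3.3 (filterByExpr, TMM, glmQLFit robust, glmQLFTest), in 1 model of all 20 libraries and 18 contrasts. The model takes the spread of a gene as shared by both arms, although the arms differed in reads per molecule. Calls have a Benjamini-Hochberg adjusted p under 0.05 over 10663 genes. Groups at 0 were set to 3 counts per library. Alternatives were DESeq2 1.42.0 size factors and Wald test, limma 3.58.1 (voom), TMM factors from genes of at least 32 CPM, other filters (none, or 5 CPM in 2 libraries), only the groups compared, a replicate block, counts divided by estimated reads per molecule, and left-out libraries. Library totals were added after seeing the data. Promoters came from RefSeq. Steps were tested on simulated data in which all libraries had the same spread and only genes of at least 5 CPM were changed. The simulation had no difference in reads per molecule between arms, so it does not cover the low counts in DI.

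The members and lists were chosen with earlier results of these data known. Named are the 10 members and, per list and for the average and both 6 h comparisons, up to 3 genes of at least 5 CPM with the smallest p. Some genes are not reported here.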

Additional observations from a re-analysis of the deposited data

How the results depend on the processing

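Counts of members called, over the times of a comparison, were 11 for DI against Ctrl, 11 for stimulated Ctrl, 8 for stimulated DI, 0 for the response difference and 9 for the average. With a replicate block they were 12, 11, 8, 0 and 9. The DESeq2 Wald test gave 17 for DI against Ctrl and 3 for the response difference. Other settings also moved the count for DI against Ctrl: 16 with estimated molecules, 15 with no filter on low counts and 8 with only the groups compared. For stimulated Ctrl estimated molecules gave 15 and library totals 16. Fits of only the groups compared gave 17 for stimulated Ctrl and 4 for stimulated DI. Library totals gave 13 for stimulated DI and 2 for the response difference; TMM factors from genes of at least 32 CPM and leaving out replicate 2 of DI at 2, 4 and 6 h each gave 1 for the response difference. The cause of these moves was not tested. Shares of all genes called under the alternatives of this section are not given, so these counts describe the processing and are not results about the members. Leaving out 1 library at a time gave 9 to 15, 9 to 11, 7 to 10, 0 to 1 and 8 to 10; the 1 was Pcna without Ctrl at 0 h replicate 1. Of 2925 single results 2806 kept their side of the threshold, 45 lost it, 74 gained it and 0 were called in the opposite direction. Whether replicate numbers pair the samples is not settled. Deviations of same-numbered libraries from their group means had r from -0.16 to 0.12 over 45 pairs of groups (median -0.01), which cannot show that they were unpaired. In DI, replicate 2 had more estimated reads per molecule than replicate 1 at every time, 6.36 to 8.21 against 4.41 to 5.39. Few molecules per MCM gene in DI limit what single times can show.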
